A study of Mus musculus with 4 samples.

Results

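The clustered histone genes are the replication-dependent genes whose symbols begin with *Hist1h*, *Hist2h*, *Hist3h* or *Hist4h*, and 56 of the 19645 features in the deposited expression tables carried such a symbol. They were chosen by symbol alone. By histone type there were 6 genes for the linker histone H1, 13 for H2A, 15 for H2B, 10 for H3 and 12 for H4. The GENCODE M21 annotation names 70 clustered histone genes. Of these, 14, some of them pseudogenes, have no feature under their symbol here, so sums over the 56 do not cover the whole family. By genomic cluster, 47 were *Hist1* genes on chromosome 13, 6 were *Hist2* genes on chromosome 3, 2 were *Hist3* genes on chromosome 11 and 1 was the *Hist4* gene on chromosome 6.

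H2A, H2B, H3 and H4 form the protein core of the nucleosome, and H1 binds the linker DNA between nucleosomes. The clustered genes supply most of these proteins when DNA is replicated: NPAT activates their transcription at the entry to S phase, and most of their mRNAs end in a short 3′ stem-loop, bound by SLBP, in place of a poly(A) tail. The histone variant genes lie elsewhere in the genome, and most are transcribed outside S phase as well and give polyadenylated mRNAs.

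The data are 4 RNA-seq libraries of undifferentiated mouse embryonic stem cells (ESCs), 2 wild-type (WT) and 2 *Bmal1* knockout (KO), made from total RNA after removal of ribosomal RNA. The KO cells were a line made with CRISPR/Cas9 that carries a frameshift deletion in *Bmal1* (*Arntl*), which encodes a transcription factor of the circadian clock, and both lines were grown on gelatin with LIF. The labels name no separate cultures, so p-values measure only the spread between these libraries, and genotype cannot be told apart from line or culture. The comparison of KO with WT asks which transcripts change when ESCs lack BMAL1.

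*Arntl* itself was listed at 6.05 and 6.29 FPKM in WT and at 5.95 and 5.92 FPKM in KO (log2 fold change -0.06, adjusted p = 0.750), so its RNA level does not check the labels. FPKM, the deposited unit, are fragments scaled by feature length and by the mapped fragments of the library. Of 11 rows for 10 ESC markers, 8 were lower in KO and 3 higher, where 53.2% of all tested features were lower. At an adjusted p under 0.05, *Klf4* (-0.46) and *Tdgf1* (-0.36) fell and *Tfcp2l1* (0.39) rose, where 5.6% of all tested features fell and 6.85% rose. *Pou5f1* was between 1389 and 1620 FPKM in the 4 libraries. The summed level of 7 fibroblast markers was between 1.72 and 3.38 FPKM and that of 10 primitive endoderm markers between 15.9 and 20.7 FPKM. Features without a gene symbol took 26.8% and 37.3% of the summed FPKM in WT and 19.0% and 18.1% in KO. Read numbers cannot be recovered from these tables, so the depth is unknown and precision rests on the spread between replicates.

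The 3′ stem-loop that sets these mRNAs apart was found in the annotated transcripts of 39 of the 56 genes, and it took 6 forms. Of the other genes, 13 have an annotated transcript that stops at or near the stop codon. These 3′ ends are shown because they stand in place of the poly(A) tail that most histone variants have. In each line the capitals mark the 6 bases on either side that pair to form the stem, and the 4 bases in lower case form the loop.
*Hist1h2ad*, and 21 other genes for H1, H2A, H2B or H3: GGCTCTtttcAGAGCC
*Hist1h2bk*, and 5 other genes for H1, H2B or H3: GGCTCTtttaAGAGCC
A gene for H2A: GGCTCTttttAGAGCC
*Hist1h4d*, and 5 other H4 genes: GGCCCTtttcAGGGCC
*Hist1h4i*, and 1 other H4 gene: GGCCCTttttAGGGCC
*Hist1h4b*, and 1 other H4 gene: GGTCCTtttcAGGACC
The stem of the H4 genes differed from that of all other types in these sequences. The stem-loop began 21 to 58 bases after the stop codon (median 31). In *Hist1h4i* it lies on the minus strand at chr13:22040966-22040981 of GRCm38, within the 3′ untranslated region.

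The clustered genes were low in every library. Their mean levels ran from 0.0491 to 20.0 FPKM, only 13 of the 56 exceeded the median of all features, and 5 reached 5 FPKM. These were *Hist1h4i* (20.0 FPKM), *Hist3h2a* (12.6 FPKM), *Hist1h2bc* (8.97 FPKM), *Hist1h2ae* (8.15 FPKM) and *Hist1h2af* (5.99 FPKM). Summed over all 56 genes, the level was 133 and 152 FPKM in WT and 101 and 99.9 FPKM in KO, which is 0.0183%, 0.0204%, 0.0143% and 0.0145% of the summed FPKM of features with a symbol. Both KO sums lay below both WT sums. So did those of features with a symbol, at 725837 and 741173 FPKM in WT and 706786 and 687628 FPKM in KO.

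Most histone variant genes stood far above them. *H2afz*, which encodes H2A.Z, was at 1479 and 1606 FPKM in WT and 1492 and 1562 FPKM in KO. *H3f3a*, an H3.3 gene, was at 629 and 660 FPKM in WT and 711 and 746 FPKM in KO. The 14 variant genes summed to 26.7 and 24.6 times the clustered genes in WT and to 34.4 and 36.0 times in KO. The labels state depletion of ribosomal RNA, which by itself does not select for poly(A) tails. Other RNAs that lack such a tail were looked up after these values were seen. The telomerase RNA *Terc* was at 5.24 and 9.73 FPKM in WT and 2.19 and 5.28 FPKM in KO, and *Rmrp*, the RNA of the RNase MRP complex, was at 9.73 and 8.72 FPKM in WT and 5.14 and 10.2 FPKM in KO. *Rpph1*, whose feature shares its coordinates with others, was at 10.9 and 11.9 FPKM in WT and 11.1 and 9.56 FPKM in KO. The feature of *Terc* spans 96411972 to 96414905 on chromosome 3, far longer than that of *Rmrp*, from 43492785 to 43493059 on chromosome 4. FPKM are scaled by feature length, and whether the *Terc* feature holds only the telomerase RNA was not tested. The means of *Terc* and *Rmrp*, 5.61 and 8.44 FPKM, lay above the medians of all features, which were 2.32 to 2.46 FPKM in the 4 libraries. That comparison does not show what full recovery of such RNAs would give. How well RNAs without a tail were recovered was not tested.

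**Figure D1:**
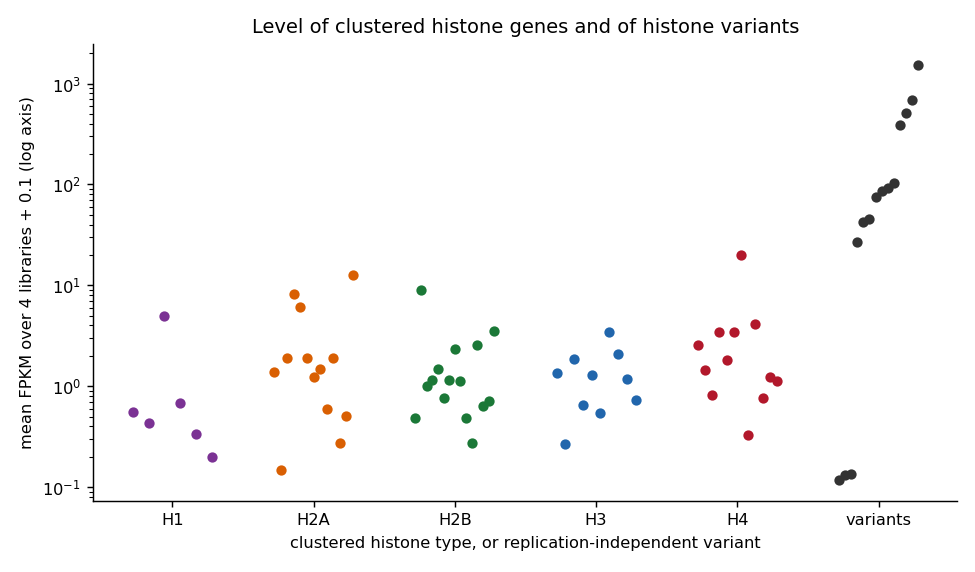
Mean FPKM over the 4 libraries plus 0.1, on a log axis, for each clustered histone gene by type and for each of the 14 histone variant genes; each point is a gene. No clustered gene exceeded 20.0 FPKM, and 11 of the variants lay at or above 27.0 FPKM.

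Of the 56 genes, 42 had a mean of at least 0.5 FPKM and were tested, together with 12990 features in all. Log2 fold changes are of KO against WT on the log2(FPKM + 0.1) scale, which understates changes of low genes, and adjusted p values are from limma with Benjamini-Hochberg adjustment over all 12990 features. The clustered genes were mostly lower in KO: 35 of 42 had a negative log2 fold change and 7 a positive one, against 53.2% negative among all tested features. Their median log2 fold change was -0.61 (0.654-fold), and that of all tested features was -0.02. Most of these genes share much coding sequence with other genes, so their values need not be independent of each other. Of the 35 tested genes with over 50% of it shared, in stretches of 50 bases, 31 were lower. Of the 7 others, 4 were lower. In bulk RNA, fewer cells in S phase and less histone mRNA per cell cannot be told apart.

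At an adjusted p under 0.05, 8 genes fell and 0 rose, where 5.6% of all tested features fell and 6.85% rose by the same criterion. A fall of more than 2-fold in addition was called for 3 genes, *Hist1h2ad*, *Hist1h2ah* and *Hist1h2bp*, and no rise was called, where 1.42% of all features were called lower and 2.72% higher. At an unadjusted p under 0.05 there were 16 lower and 0 higher, where 15.5% of all features were lower and 14.1% higher. Both KO libraries lay below both WT libraries for 20 of the 42 genes and above them for 0, where 31.7% and 27% of all features did so. The groups overlapped for the remaining 22 genes.

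The count of calls varied with the settings more than the direction did. Under each of the 3 other scalings of the libraries 35 of the 42 genes were lower, and after dividing by the summed FPKM of features with a symbol the median was -0.54 beside 0.05 for all features. With 1 library left out, 32 to 35 of the 42 were lower. The number called lower by more than 2-fold was 1 at a pseudocount of 1 and 5 at a pseudocount of 0.01. It was 10 without WT replicate 1, 9 without WT replicate 2, 9 without KO replicate 1 and 8 without KO replicate 2. Without WT replicate 1 or 2, 1 and 2 genes were called higher. With no minimum FPKM no gene was called and only *Hist1h4i* kept an adjusted p under 0.05. Leaving out KO replicate 1 took *Hist1h2ah*, *Hist1h2bl* and *Hist3h2ba* past that limit, at -0.94, -1.08 and -0.60. *Hist1h2bl* also lost it without WT replicate 1 (-0.90) or KO replicate 2 (-0.87), and *Hist3h2ba* without WT replicate 2 (-0.51) or KO replicate 2 (-0.62).

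Replicates of these genes scattered widely. The SD between replicates, on the log2 scale, had a median of 0.49 over the 42 genes and of 0.12 over all tested features, and the median standard error was 0.34 against 0.12. The features of the clustered genes are short, with a median span of 491.5 bp. Among 11 other tested features with a symbol and a span under 700 bp, the median SD was 0.53, and 5 were lower in KO. Other features with a mean of 0.5 to 5 FPKM had a median SD of 0.18, and 46.0% of these 4847 features were lower in KO. Of the clustered genes in that range, 31 of 37 were lower, with a median of -0.70. Of the 5 clustered genes at or above 5 FPKM, 4 were lower, with a median of -0.37.

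**Figure D2:**
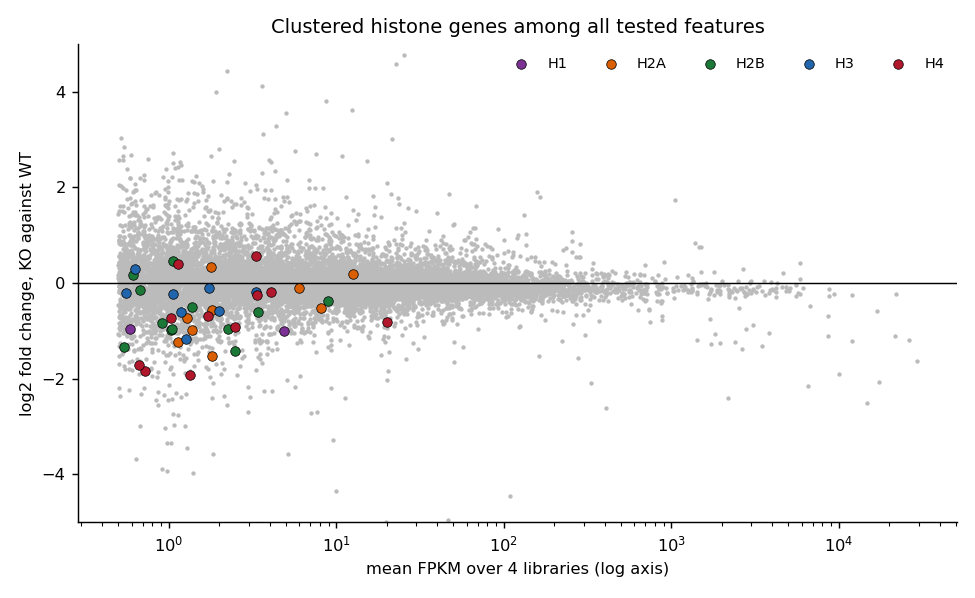
Log2 fold change of KO against WT (vertical axis) against mean FPKM over the 4 libraries (log axis) for all 12990 tested features in grey, with the 42 clustered histone genes coloured by type; 4 features lie beyond the plotted range of 5 log2 units. Most histone points lie below 0 and to the left.

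Expression fell in *Hist1h4i*, which encodes H4 and was the most abundant clustered gene (ENSMUSG00000060639.5, chromosome 13 from 22040960 to 22041362). Its level was 26.0 and 25.0 FPKM in WT and 15.7 and 13.2 FPKM in KO. The replicates lay close together and the groups were far apart, with a log2 fold change of -0.82 (SE 0.11) and an adjusted p of 0.00994. It kept an adjusted p under 0.05 in all 15 alternative settings, where it ranged from -0.94 to -0.70. Its annotated transcript runs past the stem-loop to a poly(A) signal, but the deposited feature ends just past the stem-loop. Cut into stretches of 50 bases, 70.3% of the coding sequence of *Hist1h4i* also occurs in other genes, so reads could be split among copies.

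None of the other 10 tested H4 genes passed the test, although the H4 genes as a type had the lowest median after H1, -0.74, with 9 of 11 lower. *Hist1h4b* had the largest difference of all 42 genes, from 2.49 and 1.72 FPKM in WT to 0.938 and 0.218 FPKM in KO. Its groups did not overlap, but the 2 KO values differed several-fold, and the log2 fold change of -1.92 had an SE of 0.56 (adjusted p = 0.0831). *Hist1h4d* was at the other end, with 1.31 and 4.41 FPKM in WT and 4.90 and 2.70 FPKM in KO (0.57, SE 0.56, adjusted p = 0.546). Here the groups overlapped, and without WT replicate 1 the sign turned to -0.27.

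*Hist1h4c* and *Hist1h4m* were listed at 0 in KO replicate 2 and between 0.711 and 1.12 FPKM in the other 3 libraries, so that their fold changes of -1.85 and -1.71 carried SEs of 1.00. *Hist1h4k*, whose feature shares its coordinates with a feature without a symbol, was at 5.56 and 3.13 FPKM in WT and 4.62 and 2.93 FPKM in KO. It overlapped between groups (-0.18, adjusted p = 0.749). The H4 sum was 48.6 and 48.5 FPKM in WT and 34.4 and 28.7 FPKM in KO, a log2 ratio of -0.62, and without *Hist1h4i* the ratio was -0.43.

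Among the H2A genes, 7 of 9 tested were lower, with a median of -0.56, and 2 fell. *Hist1h2ad* (ENSMUSG00000071478.6, chromosome 13 from 23574381 to 23574915) went from 2.18 and 3.35 FPKM in WT to 0.967 and 0.777 FPKM in KO. Its fall was the largest among the genes called, at -1.54 (SE 0.26, adjusted p = 0.0189). *Hist1h2ah* (ENSMUSG00000069302.5, chromosome 13 from 22035122 to 22035643) went from 1.70 and 1.54 FPKM to 0.50 and 0.795 FPKM (-1.23, SE 0.27, adjusted p = 0.0387). In both genes every KO value was below every WT value. All of the coding sequence of *Hist1h2ad* and 95.6% of that of *Hist1h2ah*, cut into stretches of 50 bases, also occurs in other genes, so their reads could have been split among copies.

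The more abundant H2A genes did not pass the test. *Hist3h2a*, the highest of them, was at 10.8 and 12.6 FPKM in WT and 12.1 and 14.8 FPKM in KO (0.19, SE 0.14, adjusted p = 0.400). *Hist1h2ae* was at 6.75 and 12.8 FPKM in WT and 6.09 and 6.93 FPKM in KO, and *Hist1h2af* spread from 3.32 to 8.89 FPKM within KO alone. *Hist1h2ag* had the largest positive value of the type, with 1.36 and 1.70 FPKM in WT and 2.74 and 1.36 FPKM in KO (0.33, adjusted p = 0.561). Sharing limits these values too. All coding stretches of *Hist3h2a* and *Hist1h2ag*, 81.4% of those of *Hist1h2ae* and 79.9% of those of *Hist1h2af* occur in other genes. The H2A sum was 33.9 and 46.2 FPKM in WT and 30.2 and 37.9 FPKM in KO, a log2 ratio of -0.23, and it was the only type whose sums overlapped between genotypes.

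The H2B genes held 4 of the 8 falls, and 10 of 12 tested were lower, with a median of -0.72. *Hist1h2bk* (ENSMUSG00000062727.4, chromosome 13 from 22035821 to 22036320) was at 3.0 and 3.01 FPKM in WT and 1.70 and 1.32 FPKM in KO. *Hist1h2bl* was at 1.48 and 1.32 FPKM in WT and 0.718 and 0.606 FPKM in KO. *Hist1h2bp* was at 3.05 and 4.20 FPKM in WT and 1.68 and 0.962 FPKM in KO. The fall was -0.96 (SE 0.18, adjusted p = 0.0255) in *Hist1h2bk*, -0.98 (SE 0.22, adjusted p = 0.0434) in *Hist1h2bl* and -1.42 (SE 0.29, adjusted p = 0.0336) in *Hist1h2bp*. In that order, 95.2%, 82.8% and 70.4% of their coding stretches occur in other genes. The feature of *Hist1h2bp* shares its coordinates with *Hist1h2an*, an H2A gene at 1.67 and 2.52 FPKM in WT and 0.809 and 2.25 FPKM in KO (-0.56, adjusted p = 0.471), so the 2 rows are not separate regions.

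The fourth fall was *Hist3h2ba* on chromosome 11, from 58948911 to 58949372, at 3.89 and 4.47 FPKM in WT and 2.67 and 2.71 FPKM in KO (-0.61, SE 0.13, adjusted p = 0.0404). It was the only gene outside *Hist1* with an adjusted p under 0.05, and 37.6% of its coding stretches occur in other genes. *Hist1h2bc*, the most abundant H2B gene, was at 9.04 and 11.2 FPKM in WT and 8.24 and 7.36 FPKM in KO. The groups did not overlap, but the difference of -0.37 did not pass the test (adjusted p = 0.142), and 97.6% of its coding stretches occur in other genes. *Hist1h2bj* had the largest positive value, 0.46, with 0.449 and 1.44 FPKM in WT and 1.02 and 1.32 FPKM in KO, and without WT replicate 1 it turned to -0.29. The H2B sum was 28.4 and 33.0 FPKM in WT and 20.7 and 19.2 FPKM in KO, a log2 ratio of -0.62.

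H1 was measured by few genes and had the largest log2 ratio of the type sums, which were not tested. *Hist1h1c*, which encodes H1.2 (ENSMUSG00000036181.2, chromosome 13 from 23738807 to 23740323), was at 5.51 and 7.62 FPKM in WT and 3.70 and 2.78 FPKM in KO. It fell by 0.99 on the log2 scale (SE 0.21, adjusted p = 0.0354), and only 21.9% of its coding stretches occur in other genes. *Hist1h1d*, just above the minimum, was at 0.442 and 1.21 FPKM in WT and 0.434 and 0.255 FPKM in KO (-0.95, adjusted p = 0.266). *Hist1h1a*, *Hist1h1b*, *Hist1h1e* and the testis gene *Hist1h1t* had means of 0.461, 0.332, 0.240 and 0.101 FPKM and were not tested. The H1 sum was 7.46 and 10.2 FPKM in WT and 4.71 and 4.09 FPKM in KO, a log2 ratio of -1.01, and without *Hist1h1c* the ratio was -0.97.

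None of the H3 genes passed the test. Of 8 tested, 7 were lower, with a median of -0.22. *Hist1h3g*, the most abundant, was at 3.40 and 3.69 FPKM in WT and 3.06 and 3.17 FPKM in KO (-0.18, SE 0.13, adjusted p = 0.395). *Hist1h3a* had the largest difference, with 2.22 and 1.38 FPKM in WT and 0.615 and 0.840 FPKM in KO (-1.18, SE 0.29, adjusted p = 0.0558). The H3 sum was 14.6 and 13.6 FPKM in WT and 11.2 and 10.1 FPKM in KO, a log2 ratio of -0.41. Both KO sums were below both WT sums for H1, H2B, H3 and H4. The same order held for the sum over features with a symbol (log2 ratio -0.07) and over all features (-0.35). With 2 libraries in each group an exact permutation test cannot go below p = 0.33, so the sums were not tested.

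**Figure D3:**
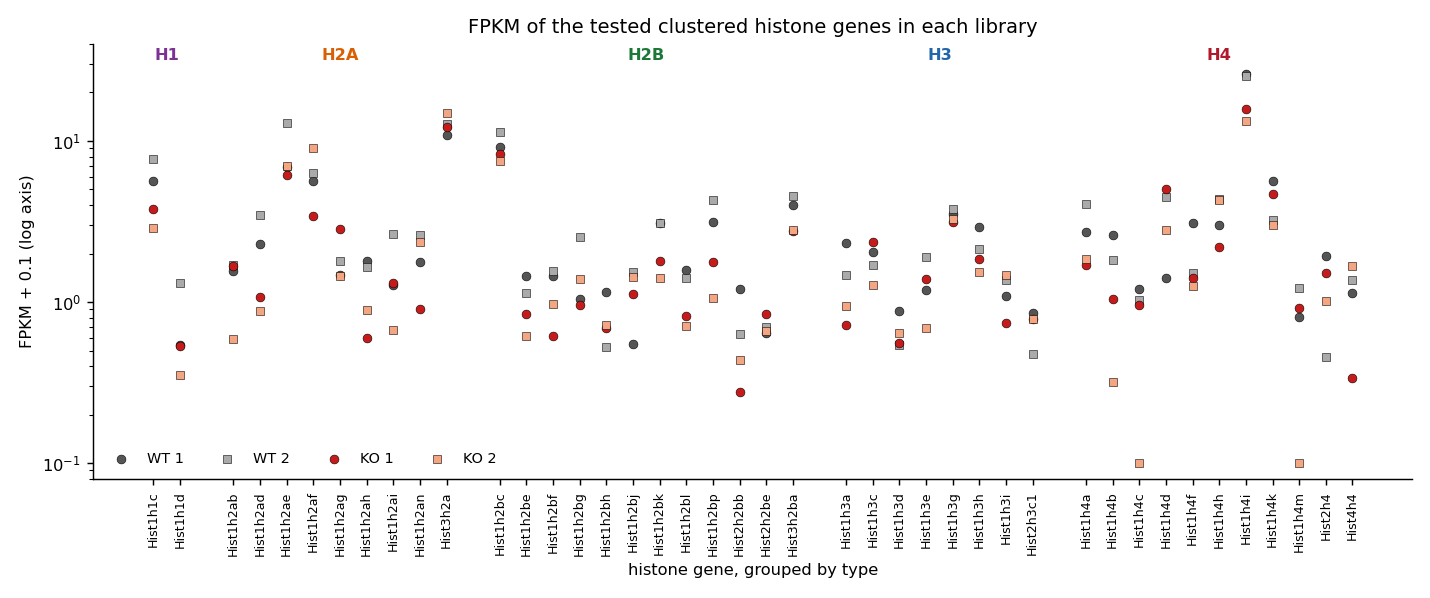
FPKM plus 0.1, on a log axis, of the 42 tested clustered histone genes grouped by type; each gene has 4 points, dark and light grey for WT replicates 1 and 2 and dark and light red for KO replicates 1 and 2. The red points of *Hist1h4i* lie at 15.7 and 13.2 FPKM under the grey points at 26.0 and 25.0 FPKM, while *Hist1h4c* and *Hist1h4m* are at 0 in KO replicate 2.

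**Figure D4:**
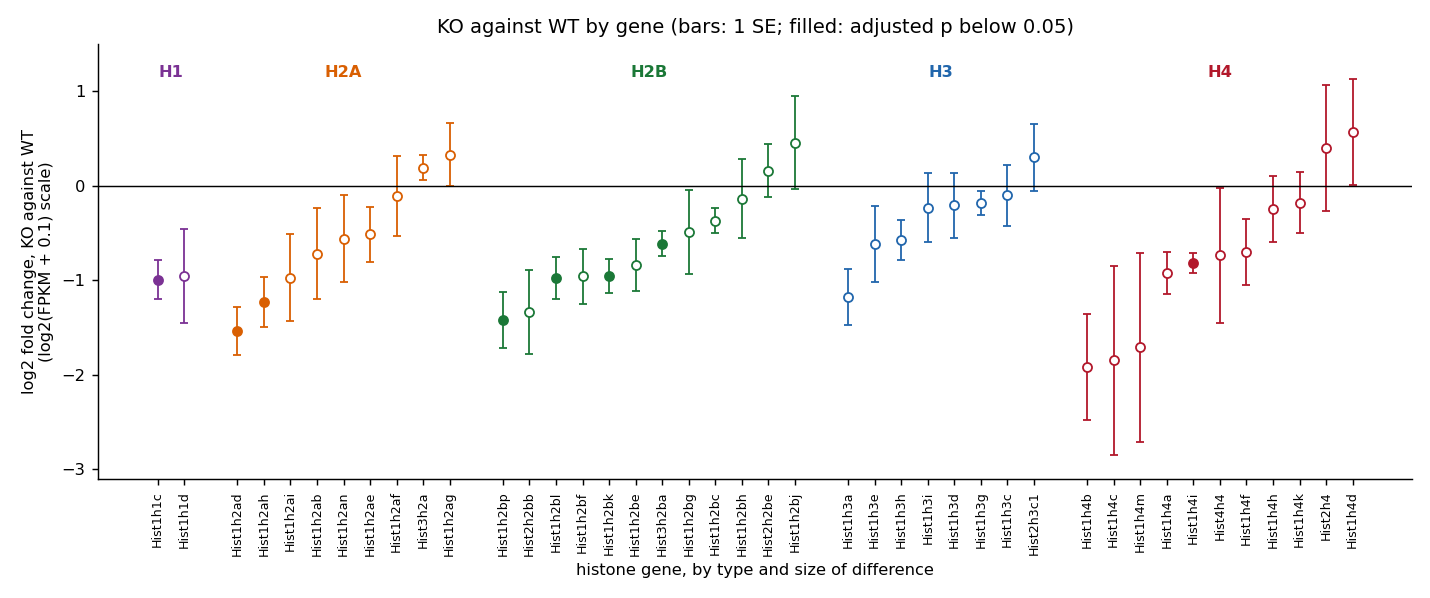
Log2 fold change of KO against WT for the 42 tested genes, ordered by size within each type; bars are 1 SE and filled points have an adjusted p under 0.05. The 8 filled points all lie below 0, and none is an H3 gene.

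The *Hist1* genes on chromosome 13 lay in 3 blocks more than 100000 bp apart, and 32 of their 35 tested genes were lower, with a median of -0.70. In the block from *Hist1h2bl* to *Hist1h4m* (chromosome 13, 21715713 to 21812150) all 8 tested genes were lower, with a median of -0.78. In the block from *Hist1h2ah* to *Hist1h2bj* (22035122 to 22043658) 3 of 5 were lower and all 3 of these fell, *Hist1h2ah*, *Hist1h2bk* and *Hist1h4i*. In the block from *Hist1h4h* to *Hist1h1a* (23531044 to 23764412) 21 of 22 were lower, with a median of -0.66, and *Hist1h2ad* and *Hist1h1c* fell.

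The *Hist2* genes on chromosome 3 gave 1 lower of 4 tested. *Hist2h2be* was at 0.544 and 0.600 FPKM in WT and 0.746 and 0.565 FPKM in KO, and *Hist2h3c1* at 0.754 and 0.376 FPKM in WT and 0.680 and 0.690 FPKM in KO. *Hist2h4* was at 1.84 and 0.355 FPKM in WT and 1.41 and 0.922 FPKM in KO, and *Hist2h2bb* at 1.11 and 0.536 FPKM in WT and 0.178 and 0.334 FPKM in KO. None passed the test, the adjusted p running from 0.112 to 0.739, and no difference between clusters was tested. *Hist2h2ac* and *Hist2h2aa2* had means of 0.402 and 0.173 FPKM. *Hist4h4* on chromosome 6 was at 1.04 and 1.27 FPKM in WT and 0.236 and 1.57 FPKM in KO (-0.74, SE 0.72, adjusted p = 0.540).

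Genes on either side of the minimum had close means. Just above it were *Hist2h2bb* (mean 0.539 FPKM), *Hist1h3d* (0.553 FPKM) and *Hist1h1d* (0.584 FPKM). Just below it were *Hist1h2ak* (0.490 FPKM), *Hist1h1a* (0.461 FPKM) and *Hist1h3f* (0.437 FPKM). *Hist1h3f* shares the coordinates of its feature with *Hist1h2bh*, which was at 1.05 and 0.423 FPKM in WT and 0.590 and 0.617 FPKM in KO. Without the 5 members that share coordinates, 31 of 38 genes were lower and 7 of them had an adjusted p under 0.05.

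H2A and H2B genes often lie head to head, so that a shared stretch of DNA holds the promoters of both, and 9 such pairs had annotated starts at most 500 bp apart. The pairs were looked at after the gene values were known. In 6 pairs both genes were tested: in 5 both genes were lower and in 1 both were higher. *Hist1h2ah* and *Hist1h2bk* both fell, at -1.23 and -0.96. *Hist1h2ad* fell by 1.54 and its partner *Hist1h2bf* was at -0.96 (adjusted p = 0.0883), with 1.35 and 1.46 FPKM in WT and 0.511 and 0.878 FPKM in KO. *Hist1h2ai* and *Hist1h2bl* were each at -0.98, the former with an SE of 0.46. *Hist1h2ae* and *Hist1h2bg* were at -0.51 and -0.49, and *Hist1h2ag* and *Hist1h2bj* at 0.33 and 0.46, none of them passing the test. The remaining pair, *Hist1h2an* and *Hist1h2bp*, whose rows share coordinates, differed most, at -0.56 and -1.42. The absolute difference within a pair had a median of 0.20 and reached 0.86.

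**Figure D5:**
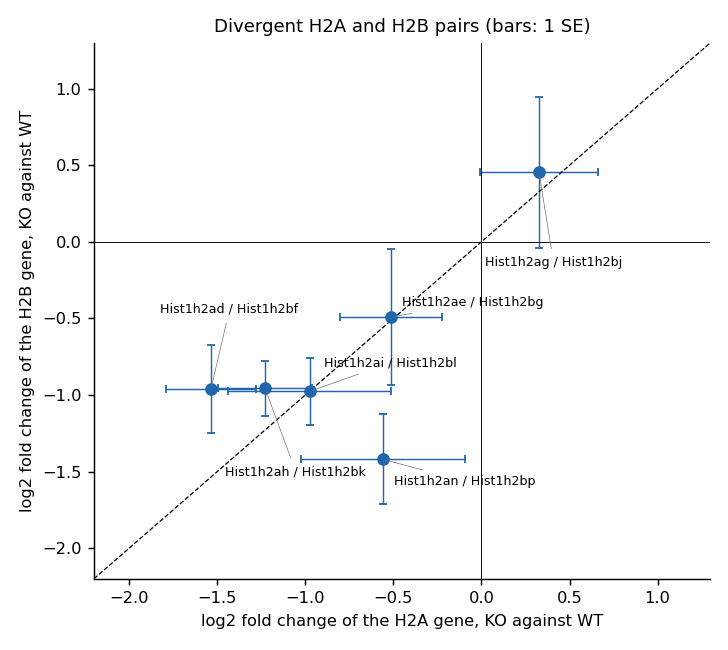
Log2 fold change of KO against WT of the H2B gene (vertical axis) against that of its head-to-head H2A partner (horizontal axis) for the 6 pairs with both genes tested; bars are 1 SE and the dashed line marks equal values. Of the 6 pairs, 5 lie where both genes are lower and 1, *Hist1h2ag* with *Hist1h2bj*, where both are higher.

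The DNA between the features of 4 of these pairs is given from the RefSeq promoter table (GRCm38.p6), on the plus strand, to show what lies between the genes of 3 pairs with both lower and of the pair with both higher. Capitals mark the TATA box TATAAA, the CCAAT box CCAAT, which reads ATTGG on the other strand, and the octamer ATTTGCAT, each searched on both strands.
*Hist1h2ah* to *Hist1h2bk*, chr13:22035644-22035820: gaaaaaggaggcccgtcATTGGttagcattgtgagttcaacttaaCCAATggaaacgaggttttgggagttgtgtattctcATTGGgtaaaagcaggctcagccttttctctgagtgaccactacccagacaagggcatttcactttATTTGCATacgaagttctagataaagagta
*Hist1h2bf* to *Hist1h2ad*, chr13:23574191-23574380: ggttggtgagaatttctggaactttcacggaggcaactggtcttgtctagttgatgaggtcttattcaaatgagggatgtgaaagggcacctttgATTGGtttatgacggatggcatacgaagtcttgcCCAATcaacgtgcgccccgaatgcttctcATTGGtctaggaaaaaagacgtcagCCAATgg
*Hist1h2ae* to *Hist1h2bg*, chr13:23571221-23571399: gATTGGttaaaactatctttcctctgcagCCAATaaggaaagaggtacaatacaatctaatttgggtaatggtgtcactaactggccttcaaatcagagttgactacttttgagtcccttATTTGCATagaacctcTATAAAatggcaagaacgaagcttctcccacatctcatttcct
*Hist1h2ag* to *Hist1h2bj*, chr13:22042950-22043229: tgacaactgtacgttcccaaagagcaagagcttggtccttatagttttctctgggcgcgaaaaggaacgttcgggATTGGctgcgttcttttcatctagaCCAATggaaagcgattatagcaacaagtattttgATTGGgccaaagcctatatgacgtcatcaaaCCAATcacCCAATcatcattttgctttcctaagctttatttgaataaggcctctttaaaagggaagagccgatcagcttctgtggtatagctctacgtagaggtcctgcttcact
The CCAAT box occurred 3, 4, 2 and 5 times in these 177, 190, 179 and 280 bases. The octamer, a site read by POU factors, occurred once each between *Hist1h2ah* and *Hist1h2bk* and between *Hist1h2ae* and *Hist1h2bg*. These stretches end where the deposited features begin and so do not hold the whole promoters. The wider promoter windows of *Hist1h2ah*, *Hist1h2bk*, *Hist1h2ad* and *Hist1h2bf* each hold TATAAA outside them. These windows overlap within a pair: those of *Hist1h2ah* and *Hist1h2bk* hold the same TATAAA site, as do those of *Hist1h2ad* and *Hist1h2bf*.

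Over the promoter windows of 51 clustered genes, 250 bases before to 50 after the start, 58.8% held TATAAA against 13.6% of all 32851 windows of that length. CCAAT was in 84.3% against 37.4%, in every window of an H1, H2A, H2B or H3 gene and in 3 of 11 of H4. ATTTGCAT was in 6 of 13 H2A and 5 of 13 H2B windows and in none of the other types, together 21.6% against 1.74%. The E-box CACGTG, the sequence to which the heterodimer of BMAL1 and CLOCK binds, was in 0 of 51 windows against 7.15% of all windows. Windows of head-to-head genes can overlap, so the same site can count for both genes in these shares. These letters are a description of the windows, and binding was not measured.

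The 3′ annotation was compared by counts only. The classes describe annotated transcripts, and the deposited features need not end where those transcripts do. The feature of *Hist1h4i* ends at 22040960, just past its stem-loop, while its annotated transcript runs on to 22040636. Of the genes whose annotated transcript ends at the stem-loop, 10 of 12 tested were lower, with a median of -0.84. Of those whose annotation stops at or near the stop codon, 9 of 9 were lower, with a median of -0.58, and 2 fell. Of those whose transcript runs past the stem-loop without a poly(A) signal, 6 of 7 were lower, with a median of -0.49. The 2 genes of a further class, *Hist1h2bc* and *Hist1h3g*, were lower. Their transcripts run past the stop codon with neither a stem-loop nor a poly(A) signal. Of those whose transcript runs on to a poly(A) signal, 8 of 12 were lower, with a median of -0.67, and these held 4 of the 8 falls, *Hist1h4i*, *Hist1h1c*, *Hist1h2bp* and *Hist3h2ba*. This class also includes *Hist1h4a* (-0.92) and *Hist2h2be* (0.16), whose transcripts hold no stem-loop. Sequence sharing was widespread: 45 of the 56 genes have more than 50% of their coding stretches of 50 bases in other genes, and of these 31 of 35 tested were lower, with a median of -0.61. Of the genes with at most 50%, 4 of 7 tested were lower. These shares were 88.6% and 57.1%, beside 53.2% of all tested features. The median of the 7 genes, -0.61, is the value of *Hist3h2ba*, and they ranged from -0.99 to 0.57. Rows that share sequence need not be independent of each other, and the difference between the groups was not tested.

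Of 29 rows for 27 genes of histone pre-mRNA transcription and processing, 17 were lower and 12 higher, with a median of -0.06. At an adjusted p under 0.05, 0 fell and 2 rose, where 5.6% of all tested features fell and 6.85% rose. These were *Snrpg*, for a core protein of the spliceosomal snRNPs, at 1154 and 1070 FPKM in WT and 2040 and 1746 FPKM in KO (0.76, SE 0.11, adjusted p = 0.0119), and *Mif4gd*, for a partner of SLBP, at 47.0 and 41.8 FPKM in WT and 65.2 and 58.7 FPKM in KO (0.48, SE 0.10, adjusted p = 0.0314). *Slbp*, for the stem-loop binding protein, was at 78.4 and 81.1 FPKM in WT and 65.6 and 77.2 FPKM in KO (-0.16, SE 0.10, adjusted p = 0.324). *Npat* was at -0.10 (adjusted p = 0.723) and *Lsm11*, of the U7 snRNP, at -0.04 (adjusted p = 0.888).

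Of 32 rows for histone chaperones, 21 were lower and 11 higher, with a median of -0.06, and 2 fell and 1 rose by the same criterion, beside the same shares of all features. *Ssrp1*, a subunit of the FACT chaperone, fell by 0.30 (SE 0.07, adjusted p = 0.0490). The others were rows that merge a chaperone gene with a neighbour, *Mgea5* and *Npm3* at -0.36 and *A730008H23Rik* and *Hjurp* at 0.40. Of the 11 tested variants, 7 were lower and 4 higher, with a median of -0.05. Of these, 2 fell and 1 rose, where 5.6% of all tested features fell and 6.85% rose. *H1f0*, the replication-independent H1.0 gene, was at 52.4 and 50.2 FPKM in WT and 33.7 and 33.1 FPKM in KO and fell by 0.62 (SE 0.07, adjusted p = 0.00804), as it did in each of the 15 alternative settings. *H2afx*, for H2A.X, fell by 0.36 (adjusted p = 0.0456), from 592 and 558 FPKM to 468 and 427 FPKM, and kept an adjusted p under 0.05 in 8 of the 15 alternative settings. *H2afy*, for macroH2A1, rose from 37.1 and 37.7 FPKM to 52.8 and 52.1 FPKM (0.49, SE 0.07, adjusted p = 0.0134).

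Genes of DNA replication and S phase were mostly lower by small amounts: 41 of 48 rows were lower, where 53.2% of all tested features were, with a median of -0.12. Of the rows, 7 fell and 0 rose, where 5.6% of all features fell and 6.85% rose. The only call of more than 2-fold was *Ccne2*, cyclin E2, which acts at the entry to S phase. It has 2 rows at shared coordinates, at 4.29 and 6.01 FPKM in WT and 1.39 and 1.99 FPKM in KO (-1.55, SE 0.24, adjusted p = 0.0153), and at 2.94 and 2.93 FPKM in WT and 1.77 and 1.4 FPKM in KO (-0.86, SE 0.17, adjusted p = 0.0310). The other falls were *Gins2* (-0.52), *Gins3* (-0.42), *Rpa1* (-0.40), *Cdc6* (-0.38) and *Rpa2* (-0.35), which act at replication origins and on single-stranded DNA. *Pcna*, the sliding clamp, was at -0.03 (adjusted p = 0.863) and *Mcm2*, of the replicative helicase, at -0.10 (adjusted p = 0.519). After dividing by the summed FPKM of features with a symbol, the median of the list was -0.05 beside 0.05 for all features, and 4 rows passed the test. Without this scaling these medians were -0.12 and -0.02. The part of these genes, or of cell cycle stage, in the lower histone values was not tested.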

How the data were processed

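The authors isolated total RNA with TRIzol, removed ribosomal RNA with Ribo-Zero, and per the labels used TopHat2 2.1.1, Bowtie2 2.3.0, Cufflinks 2.2.1 and GRCm38; the deposited FPKM are 1 value per feature and library. The read length and the handling of multiply mapped reads are not given in the sources used here. The 4 libraries were grouped by their labels.

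FPKM were tested as log2(FPKM + 0.1) for features with a mean of at least 0.5, in limma 3.58.1 (R 4.3.3) with a variance trend and Benjamini-Hochberg adjustment over 12990 features. A call needs an adjusted p under 0.05 and a change over 2-fold. Simulated libraries were used to check the script. Starts were shifted to count from 1. Annotation came from GENCODE M21, and promoters of 51 members from RefSeq (GRCm38.p6). Tables and figures were made in Python 3.11.15 with pandas 2.3.3, numpy 2.4.6 and matplotlib 3.10.9.

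The members, gene lists and tests were chosen with earlier results of these data known. Named were genes with an adjusted p under 0.05, the highest, most raised and most lowered of each type, all H1, *Hist2*, *Hist3* and *Hist4* genes, rows sharing coordinates and rows next to the minimum, with a fixed set of partners; other genes named were chosen after their values were seen. Alternatives were the pseudocount, the minimum, the scaling, the trend, the replicate block, summed symbols and each library left out, and, chosen after seeing the data, leaving out features without a symbol or rows that share coordinates.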

Additional observations from a re-analysis of the deposited data

How the results depend on the processing

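Depth is unknown, and with 2 libraries a group each value rests on few replicates; where 1 library was left out, the lone library of its group was assumed to vary like the others. Main counts were 3 genes called lower by more than 2-fold and 8 lower at an adjusted p under 0.05. The genes called lower numbered 1 at a pseudocount of 1, 5 at 0.01, 0 with no minimum, 5 after quantile normalization, 5 with the replicate block and 5 without features that carry no symbol. Leaving out 1 library gave 8 to 10: 10 without WT replicate 1, 9 without WT replicate 2, 9 without KO replicate 1 and 8 without KO replicate 2. Genes called higher then numbered 0 to 2. Genes lower at an adjusted p under 0.05 numbered 1 with no minimum, 13 with the replicate block, 15 without WT replicate 1, 13 without WT replicate 2 and 13 without KO replicate 2, and the lowest count with a library left out was 10; genes higher numbered 0 to 2. The median log2 fold change was -0.39 at a pseudocount of 1, -0.54 after scaling by the summed FPKM of features with a symbol, and between -0.79 and -0.59 with a library left out. The cause of these shifts was not tested.

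Libraries with the same replicate number deviated from their group means with a Pearson r of 0.071 and a Spearman rho of 0.39 across tested features, which are not independent, and the labels do not say that they were processed together. With the replicate block, rows with an adjusted p under 0.05 numbered 9 for histone pre-mRNA processing (main 2), 11 for chaperones (3), 6 for variants (3) and 23 for S phase (7).

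Processing had 1 such row with no minimum, 1 with no trend and 1 to 3 with a library left out. Chaperones had 1 after quantile normalization, 1 after scaling by symbols, 0 with no trend and 0 to 2 with a library left out; S phase had 4 with no minimum, 4 after scaling by symbols, 3 with no trend and 3 to 4 with a library left out. Of the genes named from these lists, *Ssrp1*, *Cdc6*, *Rpa2*, *Gins3* and the row of *Mgea5* and *Npm3* lost an adjusted p under 0.05 without any 1 of the 4 libraries, *Mif4gd* and *Rpa1* without WT replicate 2 or KO replicate 1, the row of *A730008H23Rik* and *Hjurp* without WT replicate 1 or KO replicate 2, *H2afx* without any but WT replicate 2 and a row of *Ccne2* without KO replicate 2. The chaperone median was -0.023 after quantile normalization and 0.014 after scaling by symbols, and the variant median 0.041 and 0.021. With a library left out the variant median ran from -0.14 to 0.00885. The S phase median was -0.046 after scaling by symbols, which moved the median of all features to 0.049. Without its highest gene the log2 ratio of the H2B sum was -0.76 and that of the H4 sum -0.43; with a library left out the H4 ratio ran from -0.76 to -0.50.

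With a library left out, the sign turned in genes that had not passed the test with all libraries: *Hist1h4k* ranged from -0.58 to 0.23, *Hist1h2an* ranged from -1.24 to 0.13, *Hist1h2ag* ranged from -0.15 to 0.81, *Hist1h2bj* ranged from -0.29 to 1.20, *Hist1h2bh* ranged from -0.71 to 0.43, *Hist1h3d* ranged from -0.55 to 0.14, *Hist1h4d* ranged from -0.27 to 1.41, *Hist2h2be* ranged from -0.014 to 0.33, *Hist2h3c1* ranged from -0.12 to 0.72, *Hist2h4* ranged from -0.64 to 1.45, *Hist4h4* ranged from -1.89 to 0.42, *Lsm11* ranged from -0.11 to 0.029, *Npat* ranged from -0.28 to 0.075, *Pcna* ranged from -0.13 to 0.065, *H3f3b* ranged from -0.14 to 0.031, *H2afz* ranged from -0.073 to 0.045. *Lsm11* was at 0.032 after scaling by symbols, and after quantile normalization and scaling by symbols *Pcna* was at 0.10 and 0.040, *H3f3b* at 0.041 and 0.021 and *H2afz* at 0.099 and 0.059.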
